A study of Mus musculus with 9 samples.

Results

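The cytosolic ribosomal protein genes are those that encode the protein part of the ribosomes of the cytoplasm. They were taken here as every gene of the count files whose symbol is that of a large subunit protein (Rpl with a number, or Rplp0, Rplp1, and Rplp2) or of a small subunit protein (Rps with a number, or Rpsa), with or without the endings a, l, l1, or x, and which had at least 10 counts in every library. Of 50559 genes listed, 85 symbols matched and 82 passed the count minimum, and all 82 were among the 16618 genes tested. They comprised 43 genes of the large (60S) subunit, 30 of the small (40S) subunit, the 3 genes of the P-stalk, and 6 that are paralogs (*Rpl3l*, *Rpl6l*, *Rpl7l1*, *Rpl22l1*, *Rps4l*, and *Rps27l*). The members were selected on this count minimum, so that their level is a description, and the rule used no comparison between treatments.

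RNA was sequenced from CD45+CD11b+ cells sorted from the quadriceps of *mdx* mice, which lack dystrophin and model Duchenne muscular dystrophy. CD45 is carried by leukocytes in general, and CD11b, an integrin chain, by the myeloid ones among them. All mice were *mdx* and were 4.5 weeks old at collection, after 7 days of vehicle, of spironolactone (an antagonist of the mineralocorticoid receptor), or of prednisolone (an agonist of the glucocorticoid receptor). Each group had 3 libraries, each from a pool of cells of 3 mice. Each group included mice of both sexes, with fewer males and more females in the prednisolone group than in either other group. The sexes within each pool are not given in the sources used here. Live and dead cells were not told apart in the sort. The comparison addresses how the drugs differ in their effect on myeloid cells of dystrophic muscle. The libraries held 31469815 to 32943512 counts on genes each. The labelled cell type had its markers, since *Ptprc* (encoding CD45) ranged from 545 to 659.6 CPM (counts scaled to a common library size), *Itgam* (encoding CD11b) from 978 to 1486, and *Adgre1* (encoding F4/80, a macrophage marker) from 617 to 733.

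A ribosome joins a small subunit, which reads the mRNA, to a large subunit, which forms the peptide bonds, and the P-stalk of the large subunit recruits the factors that drive elongation. Nearly every ribosomal protein is present in a single copy per ribosome, and cells make them in matched amounts. Their mRNAs are short, stable, and abundant, and begin with a run of pyrimidines, the terminal oligopyrimidine tract, through which mTOR signaling sets how much of them is translated. Myeloid cells raise ribosome production when they proliferate, and ribosomal proteins that are not built into ribosomes can bind MDM2 and stabilize p53.

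The tract is the sequence known to tie these genes to a common control, so pyrimidine runs near the start were looked for. They are shown for the members in the RefSeq promoter table that were called different between the drugs and for the 5 with the longest runs. Each line is 30 bases of genomic sequence around the longest run of C and T that lies in or reaches into the stretch from 20 bases before to 50 bases after a RefSeq transcription start, credited to RefSeq, with that run in capitals. The run of *Rps24* lies mostly upstream of this stretch. That of *Rpl11* begins 13 bases after the start, and that of *Rps23* 35 bases after it. The *Rps23* run reaches the end of the RefSeq sequence, so that it may be longer than shown. A printed run is a match of letters and not a mapped start, and it need not be the terminal tract.
Rpl38 (GRCm38.p6, chr11:114668568-114668597, plus strand): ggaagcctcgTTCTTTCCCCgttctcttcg
Rpl11 (GRCm38.p6, chr4:136053357-136053386, minus strand): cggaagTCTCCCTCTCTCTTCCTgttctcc
Rps23 (GRCm38.p6, chr13:90923142-90923171, plus strand): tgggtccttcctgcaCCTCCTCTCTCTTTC
Rpl7a (GRCm38.p6, chr2:26910789-26910818, plus strand): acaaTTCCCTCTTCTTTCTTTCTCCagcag
Rpl27a (GRCm38.p6, chr7:109519186-109519215, plus strand): gtgagCTCCTCCCTTTTCCCTTTCTgccac
Rpl34 (GRCm38.p6, chr3:130730330-130730359, minus strand): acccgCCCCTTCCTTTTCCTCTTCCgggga
Rps24 (GRCm38.p6, chr14:24490711-24490740, plus strand): agcggTCCTCTTTTCCTCCTCTCCagctcc
Rpl35 (GRCm38.p6, chr2:39005115-39005144, minus strand): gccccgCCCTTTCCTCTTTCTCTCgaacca

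Of the 82 members, 60 were in the promoter table. A run of at least 8 pyrimidines was present for 48 of these 60 (80%), against 31.1% of all 27025 genes of the table, and a run of at least 12 for 21 (35%) against 8.11%. The motif CCGGAAG, the core bound by ETS factors, was found on either strand within the 300 bases of 24 members (40%), against 9.93% of all genes. The length of the window and of the runs was chosen with the sequences in view, and no test was made.

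The mean level of the members ranged from 0.548 to 1357 CPM, with a median of 346 CPM against 11.5 CPM over all genes tested. Per kilobase of coding sequence, the highest was *Rpl41*, which encodes the smallest ribosomal protein, at 5187 CPM, and *Rps26* (2519.9), *Rplp1* (1926), and *Rpsa* (1533) were among the 5 highest. The median of the 81 members with a coding length was 658 CPM per kilobase. The 5 lowest per kilobase were 4 paralogs, *Rpl7l1* (89.2), *Rpl22l1* (50.5), *Rps4l* (10.8), and *Rpl3l* (1.40), and the 60S gene *Rpl28* (1.33).

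At the edge of the count minimum, *Rpl28* had 12 to 26 counts per library, *Rpl3l* 24 to 97, and *Rps4l* 196 to 379. Just outside were *Rpl39l* with 2 to 15 counts, *Rpl32l* with 2 to 19, and *Rpl10l* with 0 in every library. *Rpl28* encodes a constituent of the 60S subunit, yet it stood at 0.548 CPM, while the median of the members was 346. Reads that align to several places were not counted. Among the members, 23 had every 100-base window of the coding sequence elsewhere in the GRCm39 genome and 8 had none, with a median of 69.5%. *Rpl28* was one of the 23, but the others of these stood at 102 (*Rpl36a*) to 734 CPM (*Rpl10*), and how many reads each member lost in this way was not measured.

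Library vehicle 1 stood apart from the other vehicle libraries across the members before any comparison. Members took 2.57%, 3.28%, and 3.16% of the gene counts in vehicle libraries 1, 2, and 3, with a mean of 3.00% ± 0.379 (SD, n = 3). With spironolactone the shares were 2.91%, 3.24%, and 3.52% (3.22% ± 0.305, n = 3). With prednisolone they were 2.74%, 2.81%, and 2.70% (2.75% ± 0.0585, n = 3). The exact 95% binomial intervals of these shares, which cover counting error only, reached at most 0.00637 percentage points to either side. The spironolactone shares all lay above the prednisolone shares, and the vehicle shares spanned a range from below the prednisolone shares to above 2 of the spironolactone shares.

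**Figure D1:**
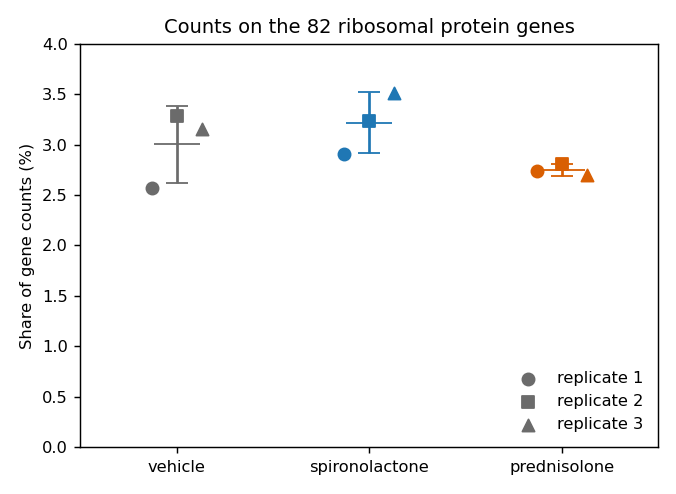
Share of gene counts (%, y axis) on the 82 ribosomal protein genes in each library, by treatment group (x axis). Symbols are single libraries by replicate number, and bars are the mean ± SD of 3 libraries. The prednisolone libraries sit between 2.70% and 2.81%, the spironolactone libraries between 2.91% and 3.52%, and vehicle 1 is the lowest of all at 2.57%.

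The members moved together from library to library. The median over the members of log2 CPM, as a deviation of each gene from its own mean, was -0.25, 0.17, and 0.12 in vehicle libraries 1 to 3, -0.02, 0.16, and 0.29 with spironolactone, and -0.14, -0.11, and -0.21 with prednisolone. In vehicle 1, 1 of 82 members was above its own mean, whereas 81 were in vehicle 2 and 74 in vehicle 3. The corresponding numbers were 31, 81, and 82 with spironolactone and 11, 9, and 2 with prednisolone. Vehicle 1 was the lowest library of 57 members and spironolactone 3 the highest of 65. The first principal component of the members held 81.2% of their variance over the 9 libraries, with loadings of the same sign for 81 of 82, and that of all genes tested held 23.7%. These sets are unlike in level, with medians of 346 CPM for the members and 11.5 CPM for all genes tested. No set of genes matched for level or length was put beside the members here. The large and small subunits kept step, with median deviations of -0.25 for 60S and -0.27 for 40S in vehicle 1, 0.29 for both in spironolactone 3, and -0.20 and -0.22 in prednisolone 3. They differed most in prednisolone 2, with -0.13 and -0.09.

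**Figure D2:**
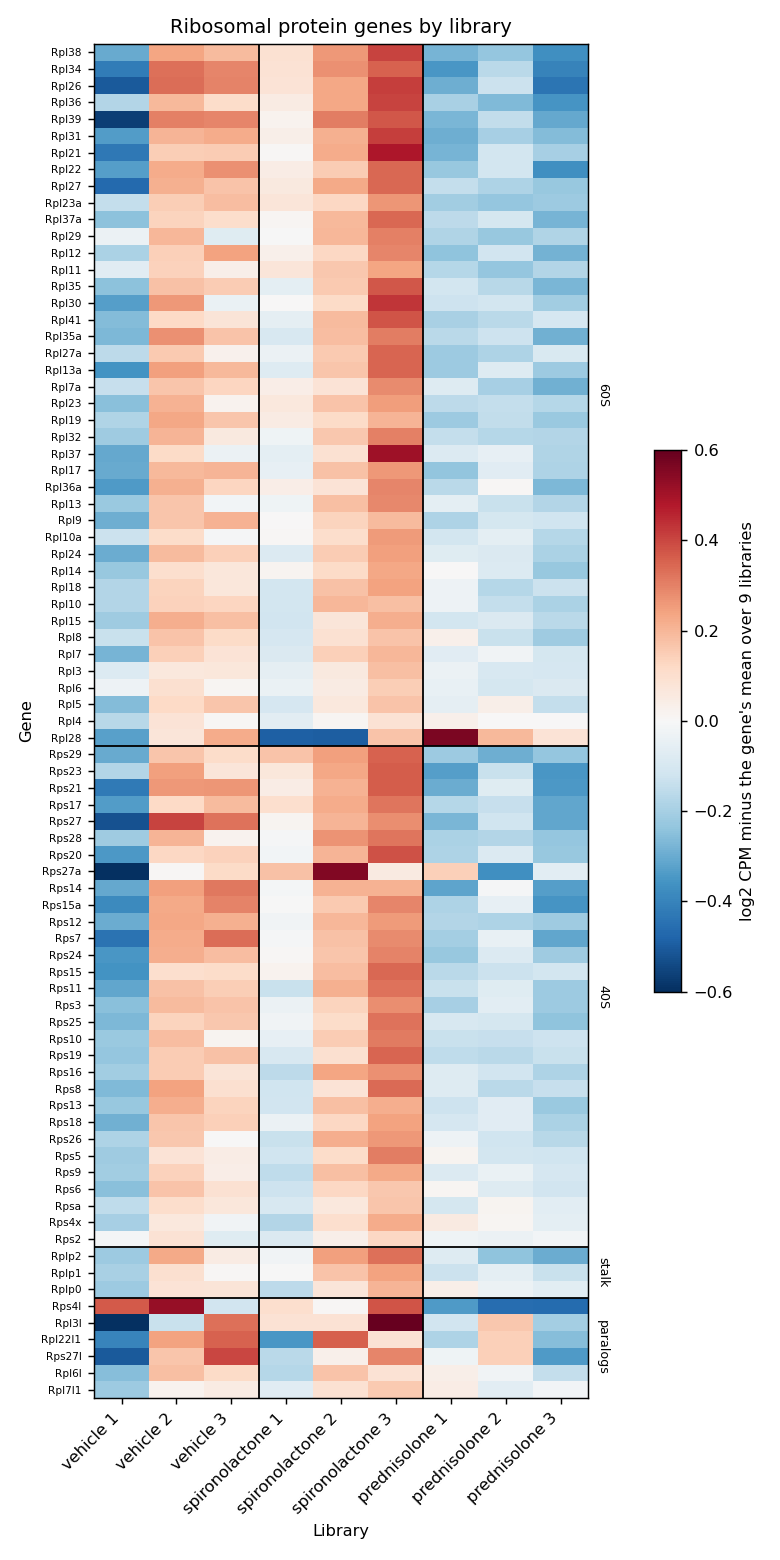
Heat map of 81 of the 82 genes (rows, in groups of 60S, 40S, P-stalk, and paralogs, each sorted by the change between spironolactone and prednisolone) in the 9 libraries (columns). Color is log2 CPM minus the mean of the gene over 9 libraries, with colors saturated at 0.6 either way. Nearly whole columns share a color: vehicle 1 and the prednisolone libraries are low and spironolactone 3 is high, and *Rpl28* and *Rps4l* depart from the pattern.

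Spironolactone and prednisolone were compared directly. Between the drugs, 81 of 82 members were higher with spironolactone, with a median log2 fold change of 0.32 against 0.03 over all genes tested, of which 53.4% were higher. In edgeR's quasi-likelihood test with Benjamini-Hochberg adjustment over all 16618 genes, 6 members rose with spironolactone relative to prednisolone and none fell, 7.32% of the members, where 2.38% of all genes tested were called higher, 2.79% lower, and 5.17% were called in either direction. At an unadjusted P under 0.05 there were 47 members, all higher (57.3%, against 11.4% of all genes tested that were higher). All 3 spironolactone libraries exceeded all 3 prednisolone libraries for 51 members (62.2%, against 15.1% of all genes tested). The only member that was lower was *Rpl28*, with a log2 fold change of -0.53 ± 0.46 (± SE, as for all log2 values below) and an adjusted p of 0.552.

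Of the 6 that rose, 4 encode 60S proteins. *Rpl36* (GRCm39 chr17:56919155-56921505, plus strand) stood at 131, 169.6, and 159.6 CPM in the vehicle libraries, 153, 174, and 196 with spironolactone, and 129, 123, and 116 with prednisolone. Its 3 prednisolone libraries lay below all of the others, and the log2 difference between the drugs was 0.51 ± 0.11, or 1.42-fold (adjusted p = 0.0231, edgeR quasi-likelihood). *Rpl38* (chr11:114559350-114563166, plus strand), whose loss in the Tail-short mouse disturbs the skeleton, had 195, 282, and 274 CPM in the vehicle libraries, 255, 287, and 318 with spironolactone, and 198, 204, and 186 with prednisolone. Vehicle 1 fell among the prednisolone libraries and the other vehicle libraries among the spironolactone libraries, and the difference between the drugs was 0.55 ± 0.13 (adjusted p = 0.0304, edgeR quasi-likelihood).

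*Rpl11* (chr4:135753967-135780818, minus strand) encodes a protein that, with that of *Rpl5* and the 5S rRNA, binds MDM2. It had 339.97, 392, and 365 CPM in the vehicle libraries, 375, 398, and 420.5 with spironolactone, and 316, 304, and 315 with prednisolone. The prednisolone libraries were below all of the others with little spread, at 312 ± 7.06 CPM (mean ± SD, n = 3), and the spironolactone mean was 398 ± 22.9. The log2 difference was 0.35 ± 0.09 (adjusted p = 0.0368, edgeR quasi-likelihood). Its partner *Rpl5* differed by 0.10 ± 0.12 (adjusted p = 0.669). *Rpl23a* (chr11:78071753-78074425, minus strand), whose protein sits at the exit of the peptide tunnel, had 271, 332, and 340.3 CPM in the vehicle libraries, 315, 326, and 359.9 with spironolactone, and 259, 255, and 257 with prednisolone. The prednisolone libraries of *Rpl23a* were close to each other and below all of the others, and the difference was 0.38 ± 0.10 (adjusted p = 0.0456, edgeR quasi-likelihood).

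The other 2 encode 40S proteins. *Rps29* (chr12:69204495-69205960, minus strand), mutated in some families with Diamond-Blackfan anemia, had 201, 278, and 268 CPM in the vehicle libraries, 279, 293, and 317 with spironolactone, and 213, 202, and 211 with prednisolone. Spironolactone libraries exceeded all vehicle and prednisolone libraries, and the difference between the drugs was 0.51 ± 0.11 (adjusted p = 0.0233, edgeR quasi-likelihood). *Rps23* (chr13:91071077-91085586, plus strand), whose protein lies at the decoding center, had 246, 329.98, and 293 CPM in the vehicle libraries, 291, 327, and 358 with spironolactone, and 221, 254, and 219 with prednisolone. Prednisolone 2 lay just above vehicle 1, the other prednisolone libraries lay below all vehicle libraries, and the difference between the drugs was 0.49 ± 0.12 (adjusted p = 0.0302, edgeR quasi-likelihood). In GENCODE, *Rpl36* overlaps *Lonp1*, *Rpl23a* overlaps *Tlcd1*, and *Rps23* overlaps *Atg10* on the opposite strand, and the strand setting of the counting is not given in the sources used here.

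**Figure D3:**
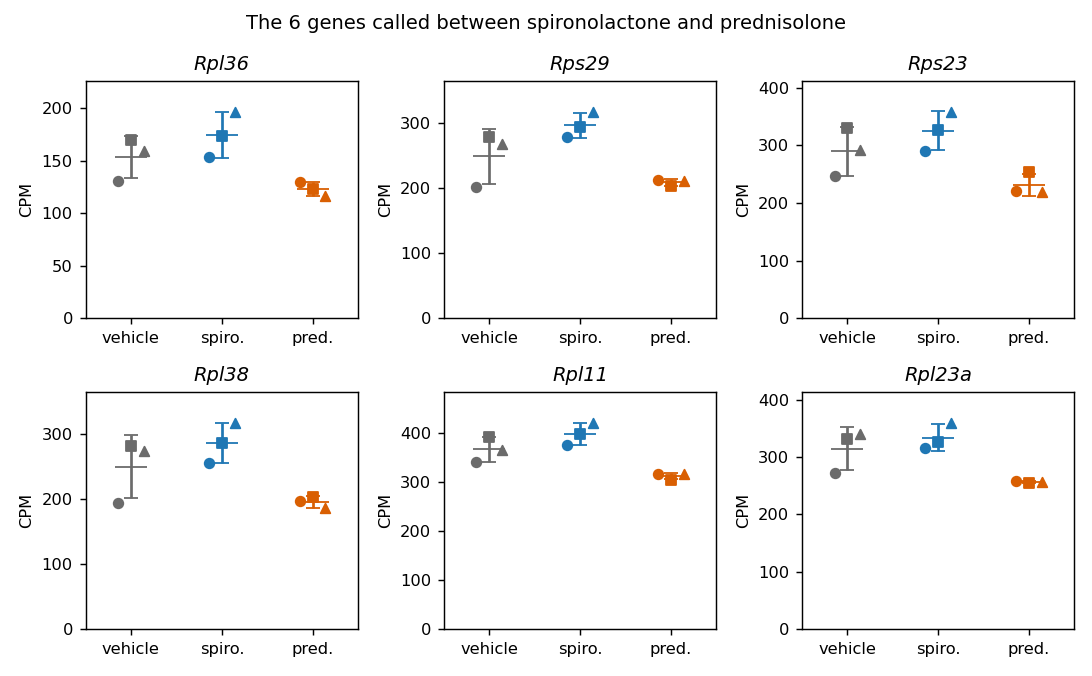
CPM (y axis, from 0) of the 6 members called between spironolactone and prednisolone, by group (x axis), in single libraries (circle, square, and triangle for replicates 1, 2, and 3), with the mean ± SD of 3 libraries. In every panel the 3 spironolactone libraries (spiro.) lie above the 3 prednisolone libraries (pred.), and vehicle 1 lies below the other vehicle libraries.

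These calls were few next to the number of members that leaned the same way, and they depended on single libraries. Without spironolactone 2, spironolactone 3, prednisolone 1, prednisolone 2, or prednisolone 3, no member was called, with 32, 17, 30, 40, and 25 at an unadjusted P under 0.05, and the medians were 0.31, 0.21, 0.31, 0.32, and 0.28, where 1.35% to 2.41% of all genes tested were called. Without vehicle 1, which is in neither of these groups but enters the filter, the scaling, and the estimate of spread, 39 were called, where 11.1% of all genes tested were called. DESeq2 called 17 members, against 10% of all genes it tested, and limma-voom 6, against 4.95%. Leaving out libraries aside, *Rpl36* and *Rps23* kept their call in 14 of 14 alternatives, *Rpl38* and *Rps29* in 13, *Rpl11* in 12, and *Rpl23a* in 10. *Rpl23a* was at 0.17 with length offsets (adjusted p = 0.175), and it had adjusted p = 0.0508 when scaled by library totals and 0.0519 without the robust option (edgeR quasi-likelihood).

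Large differences that did not pass the test included those of *Rpl34* (0.54, adjusted p = 0.0833), *Rpl26* (0.53, 0.129), *Rpl39* (0.48, 0.179), and *Rpl31* (0.48, 0.0648, edgeR quasi-likelihood). *Rpl26* had 279.6, 500.04, and 488 CPM in the vehicle libraries, 420.3, 465, and 529 with spironolactone, and 323, 362, and 293 with prednisolone, so that the vehicle libraries spanned more than the difference between the drugs. At the other end, *Rpl4* differed by 0.00 ± 0.09, *Rps2* by 0.05 ± 0.09, *Rps4x* by 0.06 ± 0.11, and *Rpsa*, also known as the laminin receptor gene, by 0.10 ± 0.10. *Rpl4* had 744, 884, and 839.7 CPM in the vehicle libraries, 799.96, 841, and 886 with spironolactone, and 853, 837, and 836 with prednisolone, and its groups overlapped.

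The following members with well-known further roles did not pass the test. *Rps6*, the target of S6 kinase, differed by 0.12 ± 0.12 between the drugs, with adjusted p = 0.607 (edgeR quasi-likelihood). *Rps19*, the gene most often mutated in Diamond-Blackfan anemia, differed by 0.28 ± 0.13 (0.209) and *Rps14*, lost in the 5q- syndrome, by 0.35 ± 0.15 (0.187). *Rpl13a*, whose protein can leave the ribosome after interferon-gamma, differed by 0.33 ± 0.15 (0.218). *Rpl10*, which takes part in the final maturation of 60S, differed by 0.22 ± 0.11 (0.284), and *Rps3*, at the mRNA entry site, by 0.29 ± 0.12 (0.181).

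None of the 3 P-stalk genes passed the threshold between the drugs. *Rplp2* had 165, 225, and 198 CPM in the vehicle libraries, 189, 227, and 242 with spironolactone, and 182, 162, and 156 with prednisolone, a difference of 0.40 ± 0.12 with adjusted p = 0.0767. *Rplp1* differed by 0.25 ± 0.10 (0.164) and *Rplp0*, the scaffold of the stalk, by 0.07 ± 0.11 (0.793). For *Rplp1* and *Rplp2* the spironolactone libraries were above all prednisolone libraries, and for *Rplp0* they overlapped. By edgeR's quasi-likelihood test 2 were at an unadjusted P under 0.05, and the differences between the 3 genes were not tested.

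**Figure D4:**
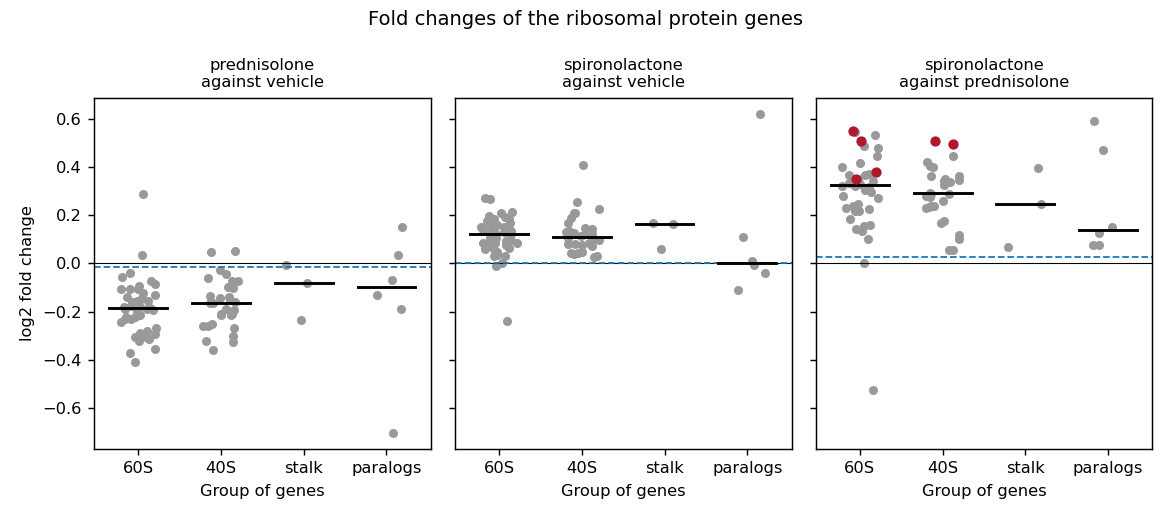
Log2 fold change (y axis) of each member by group of genes (x axis) in the 3 comparisons (panels). Points are genes, black bars the medians of the groups, red points the members called at an adjusted p under 0.05, and the dashed blue line the median over all genes tested. Points lie mostly below 0 for prednisolone against vehicle, mostly above 0 for spironolactone against vehicle, and nearly all above 0 between the drugs, the only comparison with red points.

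Against vehicle, members were lower with prednisolone but none passed the test. Here 76 of 82 were lower, where 52.2% of all genes tested were lower, and the median log2 fold change was -0.18 against -0.01 over all genes tested. Of the members, 0 were called by edgeR's quasi-likelihood test, where 1.76% of all genes tested were called, and 14 were below an unadjusted P of 0.05, all of them lower (17.1%, against 7.07% of all genes tested that were lower). DESeq2 called 1 of the 82, against 4.83% of all genes it tested, and limma-voom 0, against 1.58%. The prednisolone libraries lay below all vehicle libraries for 6 members (7.32%, against 9.27% of all genes tested), which were *Rpl6*, *Rpl11*, *Rpl23a*, *Rpl29*, *Rpl36*, and *Rps4l*.

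The 5 smallest P values belonged to *Rps4l*, *Rpl23a*, *Rpl36*, *Rps23*, and *Rpl38*. Their log2 fold changes with prednisolone were -0.70, -0.29, -0.32, -0.33, and -0.35, with adjusted p of 0.0682, 0.184, 0.197, 0.208, and 0.224 (edgeR quasi-likelihood). The result turned on vehicle 1. Without it, 23 members were called, all lower, where 4.83% of all genes tested were called, 81 of 82 were lower, and the median was -0.30. Without vehicle 2 the median was -0.09 and none was called, where 0.741% of all genes tested were called. Without vehicle 3 it was -0.12 with 1 called, where 1.04% of all genes tested were called. With offsets that remove the trend on transcript length the median was -0.06, with 58 lower and 24 higher. None was called with these offsets, where 2.21% of all genes tested were called.

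In the fit reported, spironolactone against vehicle gave the smallest median difference. Here 77 of 82 members were higher with spironolactone, where 50% of all genes tested were higher, and the median log2 fold change was 0.11 against 9.04e-05 over all genes tested. None of the members was called by edgeR's quasi-likelihood test, where 0.0181% of all genes tested were called, and 1 was below an unadjusted P of 0.05, against 9.29% of all genes tested. DESeq2 also called 0 of the members, against 1.58% of all genes it tested, and limma-voom called 0 of the members and 0 of all genes, with 2 members below an unadjusted P of 0.05 by either. The member below 0.05 in edgeR was *Rps29*, with 0.25 ± 0.11 and an adjusted p of 0.523, and it was also the only one whose spironolactone libraries all exceeded the vehicle libraries (1.22% of the members, against 6.99% of all genes tested).

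The next smallest P values were those of *Rps27a*, *Rpl37*, *Rps15*, and *Rpl21*. *Rps27a*, which encodes ubiquitin fused to a 40S protein, had 145, 224, and 241 CPM in the vehicle libraries, 252, 328, and 231 with spironolactone, and 246, 172, and 213 with prednisolone. Spironolactone 2 was its highest library and vehicle 1 its lowest, the groups overlapped, and the log2 fold change against vehicle was 0.41 ± 0.20 with adjusted p = 0.581 (edgeR quasi-likelihood). *Rps27a* was called without the low-count filter (adjusted p = 0.019, edgeR quasi-likelihood). *Rpl37*, *Rps15*, and *Rpl21* had 0.27, 0.22, and 0.27, with adjusted p of 0.595, 0.635, and 0.646. Without vehicle 1 the median over the members was -0.01, with 39 higher and 43 lower, so that the direction turned. Without spironolactone 3 it was 0.03, with 55 higher and 27 lower. Without vehicle 2 it was 0.19, against -0.09 for prednisolone against vehicle, and without vehicle 3 it was 0.15, against -0.12. With offsets that remove the trend on transcript length it was 0.07, with 67 higher and 15 lower, against -0.06. In these last settings spironolactone against vehicle no longer had the smallest median. All 3 comparisons share libraries, and their values are therefore not independent.

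The paralogs, which replace or resemble a core protein in some tissues, varied in level and in change. *Rps4l* had the lowest log2 fold change of the members with prednisolone against vehicle, and stood at 10.6, 11.8, and 7.60 CPM in the vehicle libraries, 8.83, 8.28, and 10.7 with spironolactone, and 6.50, 5.99, and 5.97 with prednisolone. Its prednisolone libraries were below all of the others, and its log2 fold change was -0.70 ± 0.18 against vehicle (adjusted p = 0.0682) and 0.59 ± 0.18 between the drugs (adjusted p = 0.0729, edgeR quasi-likelihood). Against vehicle it was the member that DESeq2 called (adjusted p = 0.0119), and edgeR called it without the low-count filter (0.00912) and without vehicle 3 (0.0329). Only 2.04% of the 100-base windows of *Rps4l* recur elsewhere in the genome. It was the only member above its own mean in vehicle 1.

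*Rpl3l*, the form of *Rpl3* used in striated muscle, had 0.730, 1.47, and 2.03 CPM in the vehicle libraries, 1.71, 1.71, and 3.07 with spironolactone, and 1.49, 1.80, and 1.40 with prednisolone, with 0.47 ± 0.38 between the drugs (adjusted p = 0.508). The summed level of 14 skeletal muscle markers was 312 to 475 CPM in the vehicle libraries, 592 to 997 in the spironolactone libraries, and 465 to 689.5 in the prednisolone libraries, and *Rpl3l* was likewise highest in spironolactone 3 and lowest in vehicle 1. Its core counterpart *Rpl3* stood at 562 CPM.

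*Rpl22l1*, *Rps27l*, *Rpl7l1*, and *Rpl6l* differed between the drugs by 0.15, 0.12, 0.08, and 0.08, with adjusted p from 0.697 to 0.794. *Rpl6l* is annotated in GENCODE as a processed pseudogene, and 59.6% of its windows recur elsewhere. *Rpl22*, the core counterpart of *Rpl22l1*, differed by 0.42 ± 0.14 (adjusted p = 0.106, edgeR quasi-likelihood). *Rps27*, the counterpart of the p53-induced *Rps27l*, differed by 0.40 ± 0.20 (0.257).

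The size of the difference between the drugs followed gene length within the members. The 27 members with the shortest coding sequences (138 to 408 bases) had a median log2 fold change of 0.36 between the drugs, the middle 27 (411 to 582 bases) 0.34, and the longest 27 (582 to 1257 bases) 0.18. Against vehicle the corresponding medians were -0.21, -0.19, and -0.10 with prednisolone and 0.16, 0.12, and 0.07 with spironolactone. Across these 81 genes, which share libraries and are not independent replicates, Spearman's rho of the change between the drugs with coding length was -0.55. The genes named above for a small difference are long (*Rpl4* 1257 bases, *Rpsa* 885), and the 6 that were called had coding sequences of 210 bases (*Rpl38*) to 534 bases (*Rpl11*).

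Short genes that are no members had medians of the same sign as the members in the 3 comparisons. The 2153 other genes with transcripts of up to 1000 bases had a median log2 fold change of 0.19 between the drugs, and the 138 of them with a mean over 64 CPM had 0.25. The 3127 other genes over 5000 bases had -0.11. For prednisolone against vehicle these 3 medians were -0.15, -0.17, and 0.06, and for spironolactone against vehicle 0.05, 0.08, and -0.07. The 688 other genes of up to 500 bases had 0.22 between the drugs, -0.19 for prednisolone against vehicle, and 0.04 for spironolactone against vehicle, and the second of these was farther from 0 than that of the members (-0.18). The median transcript length of the members was 925.5 bases, against 2818.5 for the other genes tested. With offsets that remove the trend on transcript length in each library, the median of the members was 0.15 between the drugs, with 71 of 82 higher and 4 called. These 4 are a share near that of all genes tested, of which 4.66% were called with the same offsets. The median was -0.06 for prednisolone against vehicle, and 0.07 for spironolactone against vehicle.

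**Figure D5:**
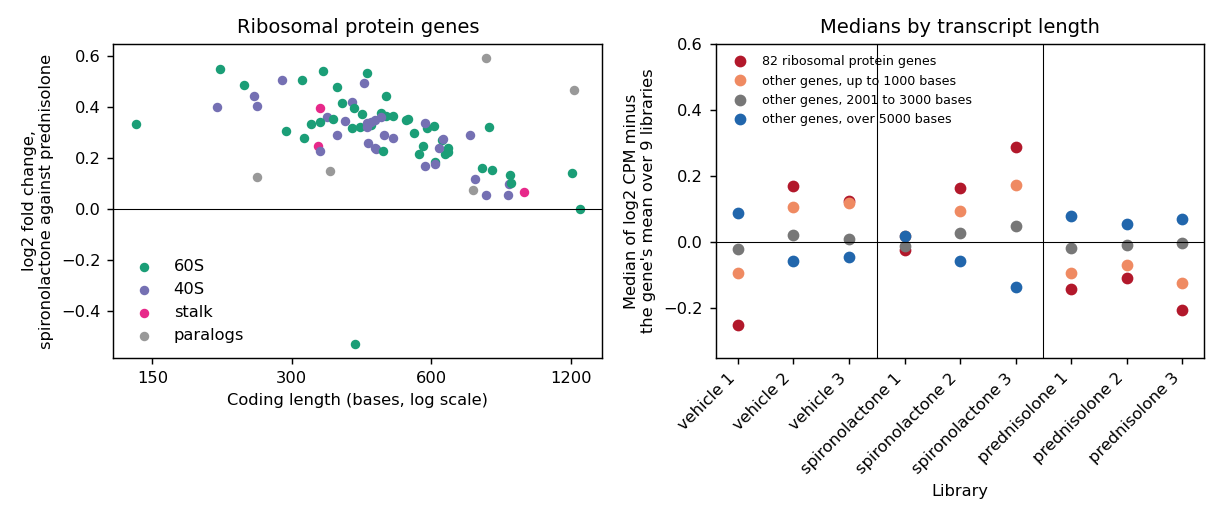
Left, log2 fold change between spironolactone and prednisolone (y axis) against coding length in bases (x axis, log scale) of 81 members, colored by group. Right, the median over genes of log2 CPM minus the mean of each gene over 9 libraries (y axis) in each library (x axis), for the 82 members and for other genes by transcript length. Change falls with length on the left, and on the right the members and other genes of up to 1000 bases lie on the same side of 0 in 8 of 9 libraries, with the members farther from 0 in those 8.

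The libraries also differed in where reads outside the members fell. The share of counted reads that fell in no gene was 9.33%, 6.77%, and 6.80% in the vehicle libraries, 8.37%, 6.69%, and 5.76% with spironolactone, and 6.58%, 6.90%, and 6.29% with prednisolone, so that vehicle 1 and spironolactone 1, where the members were lowest within the group, had the highest shares. The prednisolone libraries, in which the members were also low, had shares within the range of the others. Mitochondrially encoded genes took 3.81%, 5.72%, and 5.37% of counts in the vehicle libraries, 8.10%, 6.92%, and 8.18% with spironolactone, and 4.44%, 7.42%, and 4.26% with prednisolone. This share was lowest in vehicle 1 and highest in spironolactone 3, as the members were, but spironolactone 1 and prednisolone 2, where the members were below their mean, had higher shares than vehicle 2 and vehicle 3, where they were above it. Reads that align to several places, which were not counted, were 6.81%, 8.60%, and 8.30% of all reads tallied in the vehicle libraries. They were 9.71%, 9.42%, and 10.4% with spironolactone and 7.53%, 9.43%, and 7.17% with prednisolone. This share too was lowest in vehicle 1 and highest in spironolactone 3, and again spironolactone 1 and prednisolone 2 exceeded vehicle 2 and vehicle 3. The part of these shares in the differences was not tested.

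Members with few and with many sequence copies elsewhere in the genome had like medians. The 16 members with fewer than 10% of windows elsewhere had a median of 0.32 between the drugs, all 16 higher, and the 23 with all windows elsewhere had 0.30, with 22 higher. Of 321 ribosomal protein pseudogenes listed in the count files 125 were tested, with a median of 0.21 and 106 higher. When the counts of the pseudogenes were added to those of the parent genes, an alternative chosen after seeing the data, 6 members were called, where 5.22% of all genes tested were called, and all 82 were higher, *Rpl28* included.

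Markers of other cells differed between the drugs as well. All 6 erythroid genes tested, 11 of 12 lymphocyte genes, all 12 endothelial genes, 8 of 10 neutrophil genes, 8 of 10 fibro-adipogenic genes, and 10 of 13 skeletal muscle genes were higher with spironolactone than with prednisolone, of which 4, 5, 5, 0, 0, and 0 were called (6, 8, 8, 3, 3, and 6 at an unadjusted P under 0.05). The summed erythroid level was 187 to 306 CPM with spironolactone, 37.1 to 79.7 with prednisolone, and 70.3 to 135 with vehicle, with *Slc4a1* at 0 in some libraries. Summed lymphocyte markers were 33.7 to 40.9 CPM, 19.2 to 27.3, and 19.98 to 26.3 in the same order, with *Trac* at 0 in all libraries. Endothelial sums were 337 to 428 CPM, 264 to 311, and 222 to 263 in that order. Summed neutrophil markers were 1189 to 2607 CPM with spironolactone, 835 to 1067 with prednisolone, and 729.7 to 3616 with vehicle, where vehicle 3 was the highest.

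Proliferation markers went the other way, since 16 of 16 G2/M genes and 12 of 14 S phase genes were lower with spironolactone than with prednisolone, 8 and 4 of them called. Macrophage markers were split, with 5 of 10 higher, and the 2 called, *C1qb* and *C1qc*, which encode chains of complement C1q, were higher (5 at an unadjusted P under 0.05). *Itgam*, the gene of the sort marker CD11b, was called lower, with 978 to 1170 CPM with spironolactone against 1281 to 1486 with prednisolone. Of 8 monocyte genes, 3 were higher and 5 lower (3 at an unadjusted P under 0.05). Of 8 dendritic cell genes, 5 were higher and 3 lower (3 at an unadjusted P under 0.05). *F13a1* of the monocyte list and *Itgax* of the dendritic cell list were the ones called, both lower.

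For prednisolone against vehicle, 16 of 16 G2/M genes and 13 of 14 S phase genes were higher with prednisolone, 10 and 2 called. Lower were 6 of 6 erythroid genes, 10 of 12 lymphocyte genes, and 8 of 10 neutrophil genes. None of these was called in edgeR's quasi-likelihood test (2, 5, and 3 at an unadjusted P under 0.05). Of the other lists, 10 of 13 skeletal muscle, 10 of 12 endothelial, and 7 of 10 fibro-adipogenic genes were higher (4, 2, and 0 below that P). So were 6 of 8 dendritic cell genes and 5 of 8 monocyte genes (4 and 2), and 6 of 10 macrophage genes were lower (2). *Myh1* of the skeletal muscle list and *Itgax* of the dendritic cell list were called, both higher. For spironolactone against vehicle, all 13 skeletal muscle, 12 endothelial, 10 fibro-adipogenic, 12 lymphocyte, and 6 erythroid genes tested were higher with spironolactone, with none called in edgeR's quasi-likelihood test (10, 11, 5, 6, and 5 at an unadjusted P under 0.05), while 8 of 8 monocyte genes and 7 of 10 neutrophil genes were lower (1 and 0). Summed monocyte markers were 1700.5, 3422, and 3103 CPM in the vehicle libraries and 2037, 2452, and 2298 with spironolactone. With prednisolone they were 3809, 2922.5, and 3552, so that vehicle 1, the library lowest in the members, was also lowest in these. Vehicle 1 was the lowest library as well in summed skeletal muscle (312 CPM), fibro-adipogenic (1115), endothelial (222), and neutrophil (729.7) markers. Its macrophage sum (18848) was also the lowest, but close to that of prednisolone 1 (18956), and *Lyz2* alone gave 8204 CPM of it. The median deviation of the macrophage genes in vehicle 1 was 0.095, above 0, so that this list as a whole was not low there. Vehicle 1 was not the lowest in erythroid, lymphocyte, or dendritic cell sums. Whether fewer cells of a type or less RNA per cell lies behind a level cannot be told apart in these libraries, and the part of these cells in the members' differences was not tested.

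Ribosomal protein genes that the symbol rule left out went the same way as the members. All 5, among them *Rps3a1*, *Rpl36al*, *Fau*, and *Rps27rt*, were higher with spironolactone than with prednisolone, with a median of 0.39, and none was called, with 4 at an unadjusted P under 0.05. *Fau*, which encodes a ubiquitin-like protein fused to a 40S protein, had 359, 509, and 454 CPM in the vehicle libraries, 432, 495, and 566 with spironolactone, and 366, 390.1, and 370.3 with prednisolone, so that all spironolactone libraries exceeded the prednisolone libraries (log2 difference 0.41 ± 0.13, adjusted p = 0.0817, edgeR quasi-likelihood). *Rpl36al* differed by 0.39 ± 0.12 (0.0732), *Rps3a1* by 0.13 ± 0.11 (0.525), and *Rps27rt* by 0.53 ± 0.23 (0.202).

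Other genes of the translation machinery had medians near 0 between the drugs. Of 9 elongation genes 5 were higher with spironolactone than with prednisolone, with a median of 0.03 and none called (1 at an unadjusted P under 0.05). *Eef1a1*, which brings the aminoacyl tRNA and also has a terminal oligopyrimidine tract, differed by -0.06 ± 0.09 and *Eef2*, the translocase, by -0.18 ± 0.09. Of 34 initiation genes 15 were higher, with a median of -0.03 and none called (9 at an unadjusted P under 0.05). Of 20 other mRNAs with a terminal oligopyrimidine tract, among them elongation genes, 12 were higher, with a median of 0.05. *Pabpc1*, which encodes poly(A)-binding protein, was the only one of them called, and it was lower with spironolactone. It had 967, 1083, and 992 CPM in the vehicle libraries, 823, 977, and 953 with spironolactone, and 1242, 1179, and 1167 with prednisolone, a log2 difference of -0.38 ± 0.10 (adjusted p = 0.0368, edgeR quasi-likelihood). *Tpt1*, another short mRNA of this class, differed by 0.23 ± 0.12 (0.278).

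Ribosome assembly genes leaned the other way. Of 50 biogenesis genes tested 18 were higher with spironolactone than with prednisolone and 32 lower, with a median of -0.08 and none called (11 at an unadjusted P under 0.05). Against vehicle the biogenesis genes with the smallest P were *Taf1d* (-0.36) and *Bysl* (0.29) for prednisolone and *Ddx21* (-0.31) and *Grwd1* (-0.33) for spironolactone, with adjusted p from 0.145 to 0.489. Of 26 genes that control ribosome synthesis 8 were higher, with a median of -0.08. *Larp4*, an RNA-binding protein gene, was the only one called and was lower with spironolactone, with -0.35 ± 0.08 (adjusted p = 0.0319, edgeR quasi-likelihood). *Mtor* had -0.21 (0.351), and *Myc*, a driver of ribosome synthesis, had -0.18 (0.365).

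Mitochondrial ribosomal proteins, encoded in the nucleus for a separate ribosome, were mostly higher, with 63 of 78 higher with spironolactone than with prednisolone and a median of 0.14. *Mrpl54* rose by 0.49 ± 0.12 (adjusted p = 0.0304) and *Mrps21* by 0.47 ± 0.12 (0.0437, edgeR quasi-likelihood). They were the 2 that were called, where 2.38% of all genes tested were called higher.

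Of 15 p53 target genes, 7 were higher with spironolactone than with prednisolone and 8 lower. *Pmaip1*, which encodes the proapoptotic NOXA, had 42.8, 47.5, and 48.4 CPM in the vehicle libraries, 28.5, 32.9, and 38.0 with spironolactone, and 27.3, 23.1, and 21.7 with prednisolone. It fell with prednisolone against vehicle (-0.94 ± 0.12, adjusted p = 0.00193) and was higher with spironolactone than with prednisolone (0.46 ± 0.12, 0.0416, edgeR quasi-likelihood). *Gdf15*, a secreted stress cytokine, also fell with prednisolone (-1.55 ± 0.27, 0.0283). None of the 15 was called for spironolactone against vehicle, with 4 below an unadjusted P of 0.05.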

How the data were processed

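The authors sorted CD45+CD11b+ cells, pooled 3 mice per library, and sequenced RNA on the DNBseq platform. They made the deposited counts, which are whole numbers of reads per gene without normalization. The submitters' processing notes name HISAT2 2.2.1, HTSeq 0.11.3, DESeq2 1.32.0, and mm39, and the annotation release and strand setting are not given in the sources used here. The deposited tables of the authors' own comparisons hold means, fold changes, errors, statistics, and p-values, and were not used. Lines that name no gene (17.2% to 21.8% of each library) were left out.

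Calculations used R 4.3.3. Counts were tested in edgeR 4.0.16 by its quasi-likelihood method (glmQLFit robust, TMM, filterByExpr with minimum count 10, all 9 libraries in one fit, two-sided), and p-values were Benjamini-Hochberg adjusted over all 16618 genes tested with a threshold of 0.05. CPM are TMM-normalized, and SD are over 3 libraries. Depth gives near 32 counts at 1 CPM, and libraries of a group differed by 19.8 to 64.4 chi-square per degree of freedom. P-values measure the spread between pools. Alternatives were DESeq2 1.42.0, limma 3.58.1 (voom), fits of 2 groups, other scalings and filters, robust off, length offsets, a replicate block, other thresholds and memberships, and leaving out each library.

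Positions, lengths, and repeated windows are from GENCODE vM39 on GRCm39, and promoter windows are from RefSeq on GRCm38.p6. Same-numbered libraries were not paired. The members, gene lists, and tests were chosen with earlier results of these data known. Genes named are members past the threshold, the 5 smallest P values per comparison, all paralogs, the P-stalk, *Rpsa*, *Rps27a*, members highest and lowest per length or known for special roles, the edge of the count minimum, and list genes past the threshold or smallest in P. Others (*Rpl34*, *Rpl26*, *Rpl39*, *Rpl31*, *Rpl4*, *Rps2*, *Rps4x*, *Rpl3*, *Rpl22*, *Rps27*, *Eef1a1*, *Eef2*, *Tpt1*, *Mtor*, and *Myc*) were chosen after their values were seen. Values of some single genes are not reported here. On simulated data the scripts were tested before use.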

Additional observations from a re-analysis of the deposited data

How the results depend on the processing

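Depth limits *Rpl28*, with 12 to 26 counts per library, and *Rpl3l*, with 24 to 97, while each other member had at least 196 counts in every library. For spironolactone against prednisolone, 6 members were called, and the number was 17 by DESeq2 (10% of all genes tested), 28 with only 2 groups in the fit (9.98%), 28 without the low-count filter (6.52%), 11 with the replicate number as a block (6.51%, against 5.17% in the fit reported), 0 at an adjusted p under 0.01 (1.1%), 16 at an adjusted p under 0.1 (10.7%), and 0 to 39 when single libraries were left out (1.35% to 11.1%). For prednisolone against vehicle, 0 were called, and the number was 1 by DESeq2 (4.83% of all genes tested), 3 without the filter (3.43%), 1 at an adjusted p under 0.1 (3.44%), and 0 to 23 when single libraries were left out (0.402% to 4.83%). For spironolactone against vehicle, 0 were called, and 1 without the filter (1.78%). The replicate block was not taken as a pairing, since 2 of 9 same-numbered pairs of libraries had a correlation of deviations over 0.1 (from -0.04 to 0.15) and 1 library correlated best with its own number. The shares of 3.00% (vehicle), 3.22% (spironolactone), and 2.75% (prednisolone) were 3.16%, 3.49%, and 2.91% without mitochondrially encoded genes, and 3.15%, 3.38%, and 2.88% with the other ribosomal protein genes added. The median between the drugs ranged from 0.15 to 0.34 over the other settings, with length offsets the lowest, and those against vehicle from -0.19 to -0.06 and from 0.07 to 0.14, so that direction was kept in these. With single libraries left out they ranged from 0.21 to 0.39, from -0.30 to -0.09, and from -0.01 to 0.19. The cause of these shifts was not tested.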
